A study of Mus musculus with 16 samples.

Results

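The antioxidant, glutathione and thioredoxin genes are a set of 36 genes whose products make and recycle glutathione, reduce peroxides and protein disulfides, remove superoxide, or regulate that machinery. They were chosen by name, with earlier results of these data known, and fall into 7 functional groups. The rule that matched probes to them by accession uses no measured value. All 36 were on the array with 49 probes, out of 55681 probes in all, and all 36 were among the 21281 genes that passed the filter on dim probes and were tested. Of the 49 probes 48 were kept.

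The values come from quadriceps, a mixed thigh muscle, of 16 male mice aged 8 weeks, with 4 mice in each of 4 groups and 1 microarray per mouse. WT mice, the age-matched wild-type controls, were either fed with free access to food or fasted for 24 h in individual cages. mFoxO-TKO mice, which lack FoxO1, FoxO3 and FoxO4 in skeletal muscle, were fed or fasted in the same way. Their deletion was made by Cre recombinase under the human α-actin (HSA) promoter, which is active in skeletal muscle fibres, so other cells of the tissue keep these genes. The arrays measured RNA of the whole tissue, in which fewer cells of a type and less RNA per cell cannot be told apart. The p-values measure the spread between the 4 mice of a group.

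FoxO proteins are transcription factors that enter the nucleus when insulin signalling falls, and in muscle they drive much of the fasting program of protein breakdown. Glutathione and thioredoxin are the main NADPH-fed systems that keep proteins reduced. Glutathione peroxidases and peroxiredoxins use them to destroy peroxides. NRF2, encoded by Nfe2l2, is held and marked for degradation by KEAP1, and when released it binds antioxidant response elements and raises many of the genes of both systems.

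The promoters of 6 members that rose with fasting in WT mice are shown because 5 of them carry the core of an antioxidant response element within the window searched, and the sixth, Txnip, carries a FoxO site. Each line gives the 250 bases before the gene's start, from RefSeq on GRCm38.p6, 5′ to 3′ on the gene's strand, with matches of the antioxidant response element core, the AP-1 site and the FoxO site in capitals and all other bases in lower case.
Srxn1, chr2:152105274-152105523, plus strand: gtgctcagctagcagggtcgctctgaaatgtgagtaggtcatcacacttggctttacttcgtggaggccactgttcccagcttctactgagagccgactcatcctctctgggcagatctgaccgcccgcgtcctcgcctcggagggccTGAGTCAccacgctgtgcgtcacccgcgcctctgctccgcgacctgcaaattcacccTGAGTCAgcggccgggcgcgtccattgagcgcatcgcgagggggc
Gclm, chr3:122245307-122245556, plus strand: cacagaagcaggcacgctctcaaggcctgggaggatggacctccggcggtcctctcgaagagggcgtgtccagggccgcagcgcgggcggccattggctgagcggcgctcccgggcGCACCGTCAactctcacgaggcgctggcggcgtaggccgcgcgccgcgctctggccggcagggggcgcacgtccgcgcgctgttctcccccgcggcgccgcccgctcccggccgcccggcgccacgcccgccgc
Txnrd1, chr10:82858956-82859205, plus strand: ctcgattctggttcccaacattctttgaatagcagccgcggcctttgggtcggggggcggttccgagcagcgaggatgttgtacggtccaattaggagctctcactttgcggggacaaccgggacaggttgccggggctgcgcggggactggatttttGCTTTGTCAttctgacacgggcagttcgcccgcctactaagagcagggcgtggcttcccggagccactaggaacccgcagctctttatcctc
Prdx1, chr4:116685349-116685598, plus strand: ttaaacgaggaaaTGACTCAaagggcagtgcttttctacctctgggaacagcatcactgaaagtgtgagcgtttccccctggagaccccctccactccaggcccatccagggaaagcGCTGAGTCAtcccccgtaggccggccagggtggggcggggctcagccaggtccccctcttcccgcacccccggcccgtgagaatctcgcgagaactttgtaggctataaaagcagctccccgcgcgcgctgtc
Nfe2l2, chr2:75704664-75704913, minus strand: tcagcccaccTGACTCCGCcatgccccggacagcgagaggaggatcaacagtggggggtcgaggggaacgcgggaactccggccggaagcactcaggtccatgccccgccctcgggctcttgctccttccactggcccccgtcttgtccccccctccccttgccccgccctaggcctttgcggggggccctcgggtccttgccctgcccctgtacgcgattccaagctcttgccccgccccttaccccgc
Txnip, chr3:96557707-96557956, plus strand: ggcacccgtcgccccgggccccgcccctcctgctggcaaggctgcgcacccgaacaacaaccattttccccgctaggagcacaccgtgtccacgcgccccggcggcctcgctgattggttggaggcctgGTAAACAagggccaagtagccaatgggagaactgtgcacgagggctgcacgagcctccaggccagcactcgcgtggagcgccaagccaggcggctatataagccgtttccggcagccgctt

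The motifs were searched on both strands of windows of 300 bases, 250 before and 50 after the start. Of the 36 members 30 had a window in the table, and Gclc, Gsr, Gsta4, Hmox1, Prdx6 and Sod3 had none there. The antioxidant response element core TGACNNNGC was found in 7 of the 39 windows of these members, 1 each in Gclm, Gstm5, Nfe2l2, Prdx1, Sod1, Srxn1 and Txnrd1, and in 12.4% of all 32851 windows of the table. Its matches lay 134 bases before the start of Gclm, 92 before 1 of the starts of Txnrd1, 133 before that of Prdx1 and 240 before that of Nfe2l2. In Srxn1 the match lay 28 bases after the start, outside the stretch printed. The capitals in Srxn1 are a pair of AP-1 sites, TGAGTCA, 102 and 45 bases before the start. That motif was added after the windows had been seen, and it was in 6 of the 39 member windows (those of Glrx, Gstm5, Gstp1, Prdx1 and Srxn1) and 5.2% of all windows. In Prdx1 an AP-1 site overlaps the antioxidant response element core. The FoxO site GTAAACA was found in 1 of the 39 member windows, 121 bases before the start of Txnip, and in 3.65% of all windows. The E-box CACGTG was in 1 of the 39, that of Prdx4, and 7.15% of all windows, and the glucocorticoid receptor motif AGAACA in 8 of the 39 and 19% of all windows. An exact pair of E-boxes 5 bases apart was in 0 windows of the table, so no member could match it. Pairs with mismatches were not searched. A match is a description of letters and says nothing of a factor's binding.

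Levels below are the log2 of the deposited processed signal minus the 75th percentile of the array, so that 0 is the signal that 75% of spots on that array did not exceed. A level belongs to 1 probe and is not set against the level of another gene. Changes are differences between group means of these levels, given with their standard error (SE) and with adjusted p-values by the Benjamini-Hochberg method over all 21281 genes tested in 1 limma model of the 4 groups. Values for the other probe of a gene come from the same model fitted to the 28571 kept probes, with its own adjustment. The threshold for passing was an adjusted p of 0.05.

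On the 16 arrays 45% to 75.2% of spots were marked as well above background, and 0 as saturated. Foxo1 and Foxo4 fell in mFoxO-TKO muscle (log2 changes −1.76 and −4.06 in fed mice, −3.40 and −4.23 in fasted mice), and Foxo3, whose values were 0.74 and −0.75, did not pass in either feeding state. The Foxo3 probe was dim, with group means of −4.10 in fed WT, −2.02 in fasted WT, −3.36 in fed mFoxO-TKO and −2.77 in fasted mFoxO-TKO mice. The loss of Foxo3 is not judged from it. The Foxo4 probe was dim as well, with group means of −2.09 in fed and −1.88 in fasted WT mice. It read −6.15 in fed and −6.11 in fasted mFoxO-TKO mice, so the size of its fall is not judged. Skeletal muscle fibre markers were well above background, and 0 of 10 passed in any comparison. The array of fasted mFoxO-TKO replicate 1 stood apart. It had a disturbed area of 3787 neighbouring spots, 6.39% of its spots, in which bright spots departed by at least 1 log2 unit from the group's other arrays, while the 15 other arrays had at most 376 such spots. Over the 34 members with 4 values in its group, that array was the highest of the 4 for 28 and the lowest for 5. Replicates 1 and 2 of every group were on slide 1 and replicates 3 and 4 on slide 2. In the other groups replicate 1 was the highest array for 25 of 36 members in fed WT mice, 17 of 34 in fasted WT mice and 20 of 34 in fed mFoxO-TKO mice.

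The disturbed area held the spots of Gclc, Gclm, the brighter of the probes of Cat, Gstm5, and 1 of the 10 spots of Prdx3. It also held the spot of Gstp1, already left out as uneven, and that of the dimmer probe of Txnip. The members that passed were therefore counted on all spots, without the spots in disturbed areas, and without that array. The last pair of settings was chosen after the data had been seen. Counts of groups without overlap and of signed changes were made on all spots only. The related and marker lists, apart from that of NRF2, were also counted on all spots only.

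**Figure D1:**
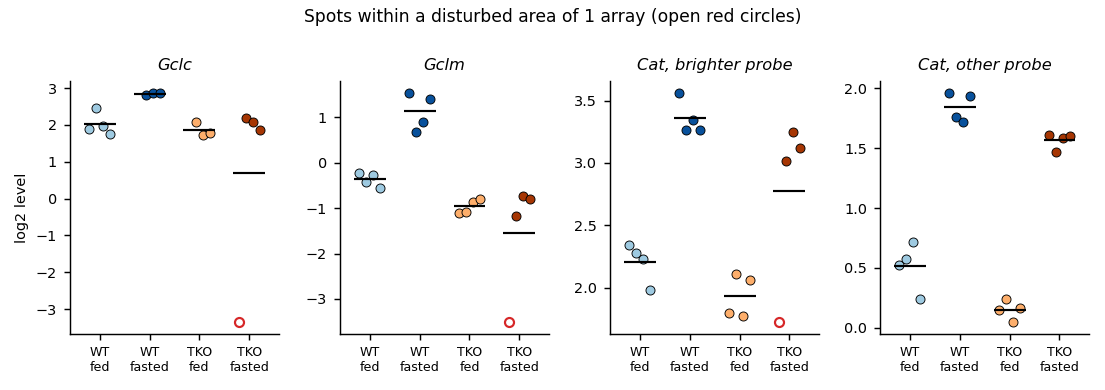
Level on each array (log2 minus the 75th percentile of the array) of the probes of Gclc, Gclm and Cat, with 4 mice per group and a bar at the group mean. The open red circles are spots of fasted mFoxO-TKO replicate 1 inside the disturbed area, at −3.36 for Gclc, −3.51 for Gclm and 1.72 for the brighter probe of Cat. The other probe of Cat lay outside that area and read 1.61 on this array, close to the other 3 arrays of the group.

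Fasting raised 10 and lowered 2 of the 36 members in WT muscle, where 20.8% of all genes tested passed (2390 up and 2036 down). The 10 that rose were Srxn1, Nfe2l2, Gclm, Hmox1, Txnip, Cat, Gsr, Txnrd1, Keap1 and Prdx1, and the 2 that fell were Gsta4 and Sod3. The median change of the 36 members was 0.25, against 0.02 over all genes tested. Groups did not overlap for 14 higher and 4 lower members, which compares with 15.2% and 13% of all genes. With the spots in disturbed areas left out, 12 members rose and 3 fell, against 23.6% of all genes passing, with Gclc and Sod1 added to the first and Gpx8 to the second. The same 15 members passed without the array of fasted mFoxO-TKO replicate 1, where 25.4% of genes passed.

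In mFoxO-TKO muscle 1 member, Prdx4, passed with fasting, as a fall. There 8.52% of all genes passed, and the median change of the members was 0.09 against 0.04 over all genes. At an unadjusted p under 0.05 (limma) there were 7 members (4 higher and 3 lower). No share of all genes is given at that limit, and 8.52% is not its counterpart. Groups did not overlap for 2 higher members, Txnip and Keap1, and for Prdx4 below, while 13.8% of all genes did not overlap there. Without the disturbed spots Cat also rose, at 9.76% of genes passing. Without the array of fasted mFoxO-TKO replicate 1, where 9.93% of genes passed, Cat rose and Prdx4, Gpx8 and Gsta4 fell. The number of members that passed was 2 without WT fasted replicate 1 or 4, and 0 without WT fed replicate 3, any of the fed mFoxO-TKO replicates 1 to 4, or fasted mFoxO-TKO replicate 3 or 4. Without fasted mFoxO-TKO replicate 2 it was 1, with Prdx4 no longer passing. The share of all genes passing is not given for these fits, so the numbers are no result about the members. With the replicate number as a block, 5 members passed, at 15.0% of all genes. Txnip, Nfe2l2 and Keap1 then rose, and Prdx4 and Gpx8 fell.

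The knockout lowered 1 member, Gpx3, in fed mice, where 1.02% of all genes passed. An unadjusted p under 0.05 was found for 3 members, with no share of all genes given at that limit. Groups did not overlap for 4 members, Gclm, Gpx3, Gstm1 and Gstp1, each lower in mFoxO-TKO mice, while 9.16% of all genes did not overlap. Without WT fed replicate 1 or 2 or fed mFoxO-TKO replicate 2, 3 or 4, 0 members passed. No share of all genes is given for those fits, so that number is no result about the members. Gpx3 passed without the disturbed spots, at 1.30% of genes, and without the array that stood apart, at 1.46%, and with the replicate number as a block, at 1.93%.

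In fasted mice the knockout lowered 9 members and raised 1, where 9.36% of all genes passed (934 up and 1057 down). The 9 were Gclm, Srxn1, Gpx3, Nfe2l2, Hmox1, Txnrd1, Txnip, Gstm1 and Prdx1, and the 1 that was higher was Gsta4. Groups did not overlap for 11 lower and 2 higher members, against 6.65% and 6.15% of all genes. The members' median was −0.25, against 0.04 over all genes. Without the disturbed spots 11 were lower and 1 higher, with Gclc and Gsr added, at 10.7% of genes passing, and the members' median was −0.16. Without fasted mFoxO-TKO replicate 1 there were 13 lower and 1 higher, with Keap1 and Nqo1 added as well, at 10.8%. With the replicate number as a block 15 passed, at 15.9% of genes, with Gsr, Sod1, Keap1 and Nqo1 added as lower and Sod3 as higher. This comparison shares the fasted WT arrays with that of fasting in WT mice, so the 2 are given side by side and their overlap is not a result.

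The difference between the fasting changes of the 2 genotypes (the interaction, mFoxO-TKO minus WT) passed for 1 member, Srxn1, at 1.15% of all genes. It had an unadjusted p under 0.05 for 10 members, with no share of all genes given at that limit. Without the disturbed spots it passed for 3, Srxn1, Gclm and Nfe2l2, at 1.56% of genes. Without fasted mFoxO-TKO replicate 1 it passed for 5, with Txnrd1 and Hmox1 added, at 2.05%. All of these were below 0. No member passed without WT fed replicate 3 or 4, fed mFoxO-TKO replicate 2 or 3, or fasted mFoxO-TKO replicate 2 or 4. Those fits have no share of all genes beside them, so this is no result about the members. On all spots the signed fasting change was higher in WT than in mFoxO-TKO muscle for 26 of the 36 members and for 48.1% of all genes. That is a count without a test, and the disturbed spots enter it. With slide as a block 15 members passed for fasting in WT mice (27.8% of all genes), 3 for fasting in mFoxO-TKO mice (13.2%), 1 and 13 for the knockout in fed (1.98%) and fasted mice (14.2%), and 4 for the interaction (2.65%). Within slide 2 alone, with 2 mice per group, the numbers were 16 (22.6% of genes), 3 (7.74%), 1 (0.157%), 13 (8.84%) and 1 (0.333%). Within slide 1 alone, where 31 members could be tested, they were 2 (4.47%), 0 (0.648%), 0 (1.28%), 2 (2.12%) and 0 (0.0357%).

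**Figure D2:**
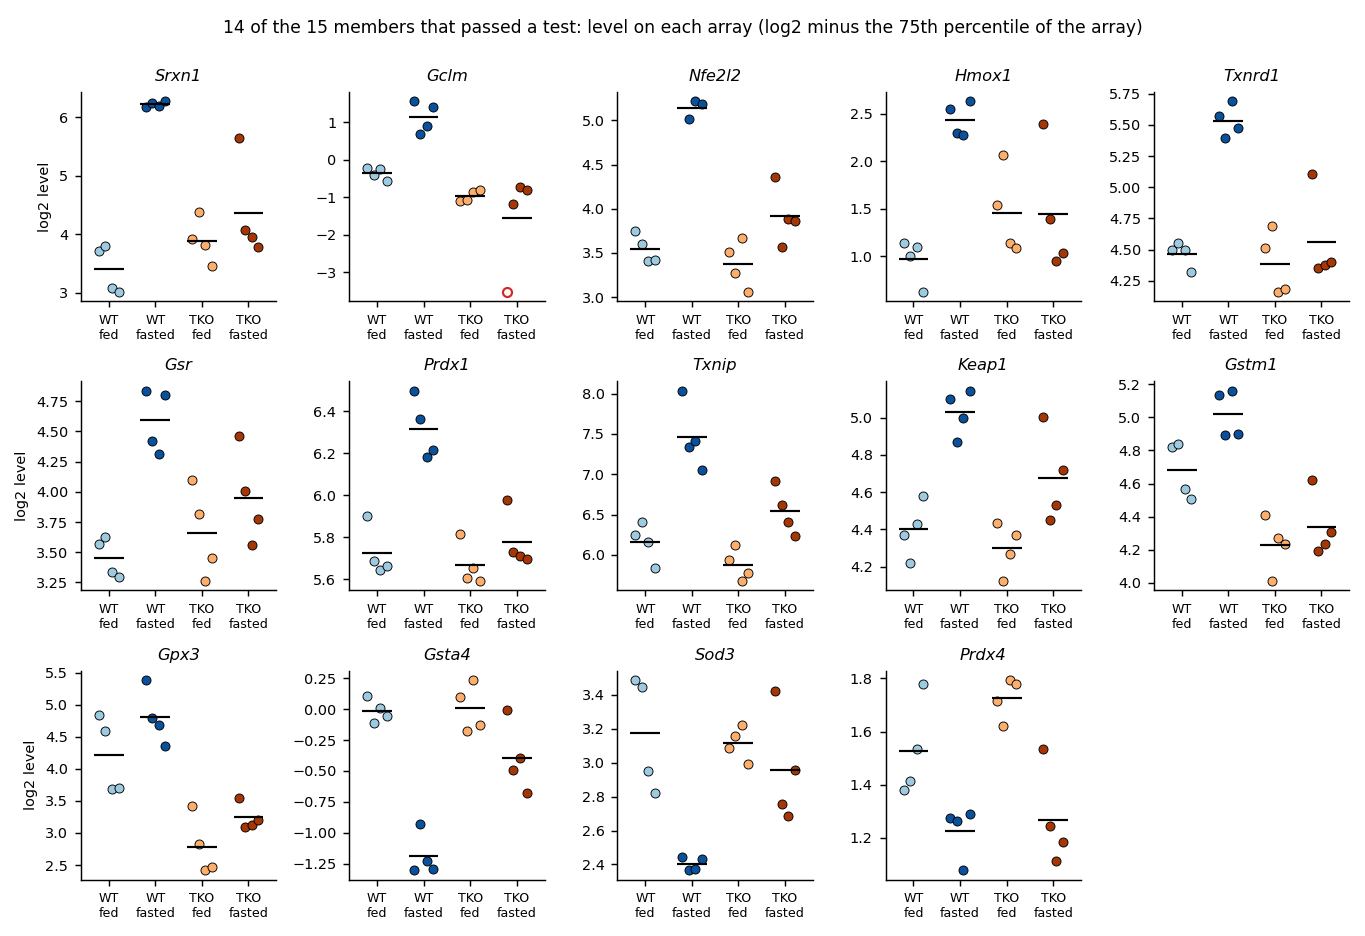
Level on each array (log2 minus the 75th percentile of the array) of 14 of the 15 members that passed in at least 1 comparison, with 4 mice per group (TKO, mFoxO-TKO) and a bar at the group mean. Srxn1, Gclm, Nfe2l2, Hmox1, Txnrd1, Gsr, Prdx1, Txnip and Keap1 have their highest group mean in fasted WT mice. Gsta4 and Sod3 are low in fasted WT mice, and the open red circle is a spot in the disturbed area.

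**Figure D3:**
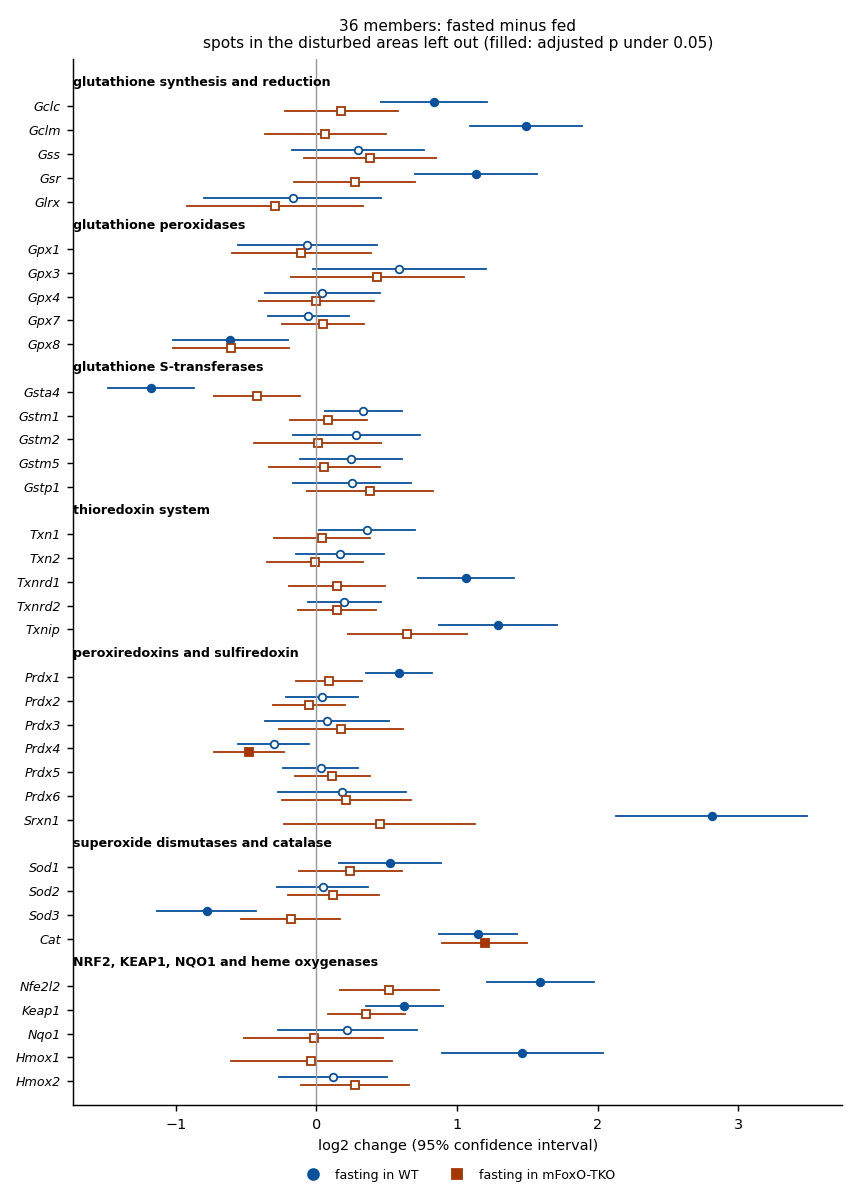
Change with fasting (log2, fasted minus fed) of the 36 members by functional group in WT (circles) and mFoxO-TKO (squares) muscle, with the spots in disturbed areas left out. Bars are 95% confidence intervals and filled symbols passed at an adjusted p under 0.05, as 15 members did in WT mice and 2, Cat and Prdx4, in mFoxO-TKO mice.

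Nfe2l2 and Keap1, the activator and its repressor, both rose with fasting in WT muscle. Nfe2l2 read 3.74, 3.6, 3.41 and 3.42 in fed WT mice and 5.02, 5.21 and 5.18 on the 3 fasted WT arrays with a value, the spot of replicate 1 being uneven. In mFoxO-TKO mice it read 3.51, 3.27, 3.67 and 3.06 when fed and 4.36, 3.56, 3.89 and 3.86 when fasted. Every fasted WT value was above every other array of the 4 groups. The rise in WT mice was 1.59 ± 0.19 (3.02-fold, adjusted p = 5.05e-05, limma), and the value in mFoxO-TKO mice, 0.54 ± 0.18, did not pass (adjusted p = 0.0774, or 0.0327 with the replicate block). Fasted mFoxO-TKO mice were lower than fasted WT mice (log2 difference −1.22 ± 0.19, adjusted p = 0.000841). The difference of the fasting changes was −1.06 ± 0.26 (adjusted p = 0.0749), and it passed without the disturbed spots (adjusted p = 0.0413) and without the array of fasted mFoxO-TKO replicate 1 (−1.20 ± 0.22, adjusted p = 0.0148).

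Keap1, the adaptor through which NRF2 is degraded, read 4.37, 4.22, 4.43 and 4.58 in fed and 5.10, 4.87, 5.0 and 5.14 in fasted WT mice. It read 4.43, 4.12, 4.27 and 4.37 in fed and 5.0, 4.45, 4.53 and 4.72 in fasted mFoxO-TKO mice. Fed and fasted mice did not overlap in either genotype. The rise was 0.63 ± 0.14 in WT mice (adjusted p = 0.00455), and the value of 0.38 ± 0.14 in mFoxO-TKO mice did not pass (adjusted p = 0.117, or 0.0181 with the replicate block). Between fasted genotypes the value was −0.35 ± 0.14 (adjusted p = 0.145, or 0.0221 with the replicate block), and −0.46 ± 0.13 without fasted mFoxO-TKO replicate 1 (adjusted p = 0.031), whose Keap1 level lay within the fasted WT range.

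Hmox1, the inducible heme oxygenase that breaks down heme, was the other member of this group to rise in fasted WT muscle. Its levels were 1.15, 1.0, 1.1 and 0.63 in fed and 2.56, 2.30, 2.27 and 2.63 in fasted WT mice. In mFoxO-TKO mice they were 1.54, 2.07, 1.14 and 1.09 when fed and 2.40, 1.40, 0.95 and 1.04 when fasted. The fasted WT arrays were above all fed arrays, while fasted mFoxO-TKO replicate 1 was the single array of its group at the fasted WT level. Hmox1 changed by 1.47 ± 0.28 with fasting in WT mice (adjusted p = 0.00164) and by −0.01 ± 0.28 in mFoxO-TKO mice (adjusted p = 0.987). The fasted genotypes differed by −0.99 ± 0.28 (adjusted p = 0.0371). That call was lost when any of 8 arrays was left out, namely WT fed replicate 2, WT fasted replicates 1, 2, 3 and 4, or fasted mFoxO-TKO replicates 2, 3 and 4, with values between −1.31 and −0.83. It was −0.53 within slide 1 and −1.46 within slide 2. The call was also lost with the normexp background correction, with no filter on dim probes and within slide 1. Without fasted mFoxO-TKO replicate 1 the difference was −1.31 ± 0.22 (adjusted p = 0.00134) and the interaction −1.80 ± 0.30 (adjusted p = 0.00672). The other probe of Hmox1, outside the disturbed area, gave 1.01 with fasting in WT mice (adjusted p = 0.000685) and −0.87 between fasted genotypes (adjusted p = 0.00411).

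Nqo1, a quinone reductase and a common readout of NRF2, had group means of 1.15 ± 0.31 (SD, n = 4) in fed WT, 1.38 ± 0.40 in fasted WT, 0.71 ± 0.26 in fed mFoxO-TKO and 0.71 ± 0.43 in fasted mFoxO-TKO mice. It passed in no comparison on all spots. Its value between fasted genotypes was −0.67 ± 0.24 (adjusted p = 0.107, or 0.00175 with the replicate block), and −0.82 ± 0.24 without fasted mFoxO-TKO replicate 1 (adjusted p = 0.0443). Hmox2, the constitutive heme oxygenase, had group means between 3.32 and 3.71 and passed in no comparison.

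Glutathione synthesis and reduction was represented by 5 genes, of which Gclm and Gsr rose in fasted WT muscle and Gclm was lower in fasted mFoxO-TKO muscle. Gclm, the modifier subunit of glutamate-cysteine ligase, which sets the pace of glutathione synthesis, read −0.22, −0.41, −0.26 and −0.56 in fed and 1.55, 0.68, 0.90 and 1.41 in fasted WT mice. In mFoxO-TKO mice it read −1.11, −1.07, −0.86 and −0.81 when fed and −3.51, −1.17, −0.74 and −0.80 when fasted, the value of −3.51 being the spot of replicate 1 in the disturbed area. All fasted WT arrays were above all fed WT arrays, and all mFoxO-TKO arrays were below both. The rise in WT mice was 1.5 ± 0.45 (2.82-fold, adjusted p = 0.026), or 1.49 ± 0.19 without the disturbed spots (adjusted p = 5.32e-05). On all spots this call was lost without WT fed replicate 2 or 4 or WT fasted replicate 1 or 4, with values between 1.36 and 1.65. It was also lost when scaled on the probes detected on every array, with no filter on dim probes, with uneven spots kept and within slide 1. In mFoxO-TKO mice the change was −0.59 ± 0.45 on all spots (adjusted p = 0.494) and 0.06 ± 0.20 without the disturbed spot (adjusted p = 0.901). Gclm was lower in fasted mFoxO-TKO than in fasted WT mice (log2 difference −2.69 ± 0.45, adjusted p = 0.00109), and −2.03 ± 0.20 without that spot (adjusted p = 1.35e-05). The interaction, −2.09 ± 0.63 on all spots (adjusted p = 0.155), was −1.43 ± 0.27 without it (adjusted p = 0.0161). Fed mFoxO-TKO mice were also below fed WT mice without overlap, but that difference of −0.60 ± 0.45 did not pass (adjusted p = 0.863).

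Gclc encodes the catalytic subunit of the same ligase. It read 1.88, 2.45, 1.96 and 1.76 in fed WT mice and 2.80, 2.87 and 2.88 on the 3 fasted WT arrays with a value. In mFoxO-TKO mice it read 2.09, 1.72 and 1.77 on the 3 fed arrays with a value and −3.36, 2.18, 2.07 and 1.86 on the fasted arrays. The value of −3.36 was again the disturbed spot of replicate 1, and the other fasted mFoxO-TKO values lay below the fasted WT values. On all spots Gclc passed in no comparison (fasting in WT mice 0.84 ± 0.99, adjusted p = 0.635). Without that spot the SE fell, and Gclc rose by 0.84 ± 0.17 with fasting in WT mice (adjusted p = 0.00368) and was lower in fasted mFoxO-TKO mice (log2 difference −0.81 ± 0.18, adjusted p = 0.0126). Its change in mFoxO-TKO mice was then 0.18 ± 0.18 (adjusted p = 0.64) and its interaction −0.66 ± 0.25 (adjusted p = 0.3).

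Gsr, the reductase that returns oxidised glutathione to its reduced form with NADPH, read 3.57, 3.63, 3.33 and 3.29 in fed and 4.84, 4.42, 4.31 and 4.80 in fasted WT mice. It read 4.10, 3.82, 3.26 and 3.46 in fed and 4.46, 4.01, 3.56 and 3.78 in fasted mFoxO-TKO mice. The WT groups did not overlap, whereas fed and fasted mFoxO-TKO mice did. Gsr rose by 1.14 ± 0.22 in WT mice (adjusted p = 0.00146), and its value in mFoxO-TKO mice was 0.29 ± 0.22 (adjusted p = 0.478). The other probe of Gsr gave a rise of 0.94 in WT mice (adjusted p = 0.000462). The difference between fasted genotypes was −0.64 ± 0.22 (adjusted p = 0.0806, or 0.00858 with the replicate block), and it passed without the disturbed spots (−0.66 ± 0.20, adjusted p = 0.0494) and without fasted mFoxO-TKO replicate 1 (−0.81 ± 0.20, adjusted p = 0.0184). Gss, glutathione synthetase, and Glrx, a glutaredoxin that removes glutathione from proteins, passed in no comparison. Their fasting values in WT mice were 0.30 ± 0.23 and −0.17 ± 0.30, and between fasted genotypes 0.28 ± 0.23 and 0.43 ± 0.30.

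Of the 5 glutathione peroxidases, Gpx3 was lower in mFoxO-TKO muscle whether the mice were fed or fasted. Gpx3 is a selenoenzyme that is secreted and found in plasma. It read 4.85, 4.60, 3.69 and 3.70 in fed and 5.39, 4.79, 4.68 and 4.36 in fasted WT mice, against 3.42, 2.83, 2.42 and 2.46 in fed and 3.55, 3.10, 3.12 and 3.20 in fasted mFoxO-TKO mice. Each mFoxO-TKO array was below every WT array of either feeding state. The difference between fed genotypes was −1.43 ± 0.30 (2.69-fold lower, adjusted p = 0.0285), and that between fasted genotypes was −1.56 ± 0.30 (2.96-fold lower, adjusted p = 0.00276). The call in fed mice was lost when WT fed replicate 1 or 2 or fed mFoxO-TKO replicate 2, 3 or 4 was left out, with values from −1.64 to −1.21, and within the slides it was −1.59 and −1.26. Within the slides the fasted difference was −1.77 and −1.36. The fasting value of Gpx3 was 0.60 ± 0.30 in WT mice (adjusted p = 0.181) and 0.46 ± 0.30 in mFoxO-TKO mice (adjusted p = 0.408), and the interaction was −0.14 ± 0.42 (adjusted p = 0.961).

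Gpx8, a peroxidase of the endoplasmic reticulum, had means of 2.06 ± 0.12 (SD, n = 4) in fed and 1.45 ± 0.23 in fasted WT mice, and 2.29 ± 0.17 and 1.70 ± 0.51 in fed and fasted mFoxO-TKO mice. Its fasting value in WT mice was −0.61 ± 0.21 on all spots (adjusted p = 0.0502). It passed as a fall without the disturbed spots (−0.61 ± 0.19, adjusted p = 0.031). Without fasted mFoxO-TKO replicate 1 it fell in WT mice (−0.61 ± 0.15, adjusted p = 0.00712) and in mFoxO-TKO mice (−0.82 ± 0.16, adjusted p = 0.00505). On all spots its value in mFoxO-TKO mice was −0.58 ± 0.21 (adjusted p = 0.102, or 0.0406 with the replicate block). Fasting also lowered 5 of 9 fibroblast markers in WT muscle (9.57% of all genes fell) and 3 of 9 in mFoxO-TKO muscle (4.23%). The log2 changes of Lum were −2.59 and −2.18. The summed linear level of those 9 markers ran from 618 to 728 in fed WT, 378 to 611 in fasted WT, 571 to 776 in fed mFoxO-TKO and 372 to 437 in fasted mFoxO-TKO mice, and its part in the Gpx8 result was not tested. Gpx1, the cytosolic enzyme, Gpx4, which reduces lipid hydroperoxides in membranes, and Gpx7 of the endoplasmic reticulum passed in no comparison. Their fasting values in WT mice were −0.06 ± 0.24, 0.05 ± 0.20 and −0.05 ± 0.15.

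The glutathione S-transferases, which attach glutathione to reactive compounds, gave 1 call of 5 for fasting in WT mice, a fall (20.8% of all genes). For the knockout in fasted mice they gave 1 higher and 1 lower member (9.36% of all genes passed). Gsta4, which clears lipid aldehydes, fell with fasting in WT muscle. It read 0.10, −0.11, 0.01 and −0.05 in fed and −1.30, −0.92, −1.23 and −1.29 in fasted WT mice, against 0.10, −0.17, 0.23 and −0.13 in fed and −0.01, −0.49, −0.40 and −0.68 in fasted mFoxO-TKO mice. The fasted WT arrays were below every other array. The log2 change in WT mice was −1.17 ± 0.15 (adjusted p = 7.36e-05), and the value in mFoxO-TKO mice, −0.40 ± 0.15, did not pass on all spots (adjusted p = 0.13) but did without fasted mFoxO-TKO replicate 1 (−0.53 ± 0.14, adjusted p = 0.025). Gsta4 was higher in fasted mFoxO-TKO than in fasted WT mice by 0.79 ± 0.15 (adjusted p = 0.00335), and the interaction was 0.77 ± 0.22 (adjusted p = 0.118).

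Gstm1, a mu-class transferase, was lower in fasted mFoxO-TKO muscle. Its levels were 4.82, 4.84, 4.57 and 4.51 in fed and 5.14, 4.89, 5.16 and 4.90 in fasted WT mice. Gstm1 in mFoxO-TKO mice read 4.41, 4.01, 4.27 and 4.23 when fed and 4.62, 4.19, 4.24 and 4.31 when fasted. Every mFoxO-TKO array was below every WT array of the same feeding state. The difference was −0.68 ± 0.14 in fasted mice (adjusted p = 0.00496) and −0.45 ± 0.14 in fed mice (adjusted p = 0.187). The other probe of Gstm1 gave −0.69 for the knockout in fasted mice (adjusted p = 0.00232), −0.62 for it in fed mice (adjusted p = 0.0284) and 0.37 for fasting in WT mice (adjusted p = 0.0479). Gstm1 shares long stretches of sequence with other mu-class genes, so a probe may also read those. Gstm2, Gstm5 and Gstp1 passed in no comparison, with fasted genotype values of −0.49 ± 0.22, −0.18 ± 0.18 without its disturbed spot, and −0.38 ± 0.21.

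**Figure D4:**
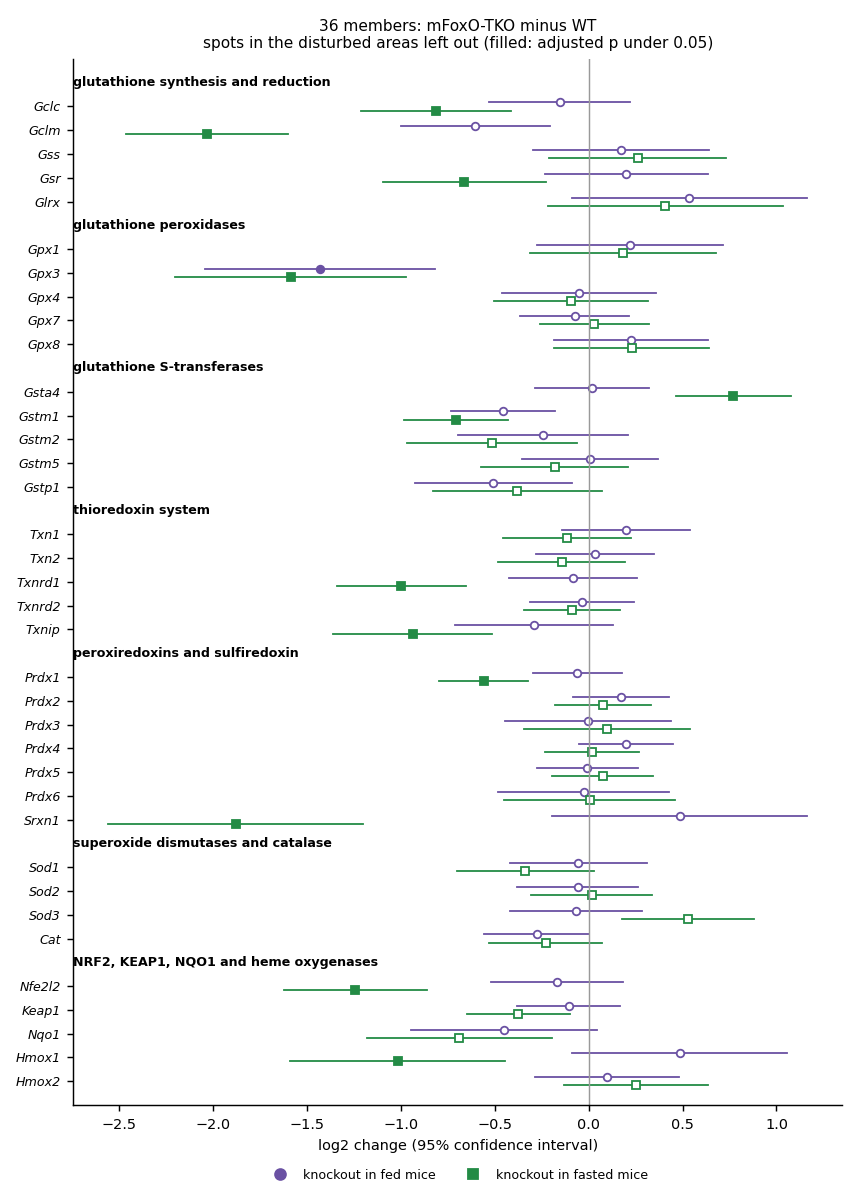
Difference between genotypes (log2, mFoxO-TKO minus WT) of the 36 members in fed (circles) and fasted (squares) mice, with the spots in disturbed areas left out. Bars are 95% confidence intervals and filled symbols passed at an adjusted p under 0.05, which in fed mice was Gpx3 and in fasted mice were 11 lower members and Gsta4.

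In the thioredoxin system Txnrd1 and Txnip rose in fasted WT muscle and were lower in fasted mFoxO-TKO muscle, while both thioredoxins and the mitochondrial reductase passed in no comparison. Txnrd1 is the cytosolic selenoenzyme that reduces thioredoxin. It read 4.49, 4.56, 4.50 and 4.32 in fed and 5.57, 5.40, 5.69 and 5.47 in fasted WT mice. Txnrd1 in mFoxO-TKO mice read 4.51, 4.69, 4.16 and 4.18 when fed and 5.10, 4.35, 4.38 and 4.40 when fasted. The fasted WT arrays were above all others, and replicate 1 was the highest of the fasted mFoxO-TKO arrays. The rise in WT mice was 1.07 ± 0.17 (2.1-fold, adjusted p = 0.000484), and the value in mFoxO-TKO mice was 0.17 ± 0.17 (adjusted p = 0.63). The fasted genotypes differed by −0.98 ± 0.17 (adjusted p = 0.00186). The interaction was −0.90 ± 0.25 (adjusted p = 0.11) and passed without fasted mFoxO-TKO replicate 1 (−1.08 ± 0.19, adjusted p = 0.00954).

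Txnip binds and inhibits thioredoxin and also restrains glucose uptake. Its levels were 6.25, 6.41, 6.16 and 5.84 in fed and 8.04, 7.34, 7.41 and 7.06 in fasted WT mice. Txnip in mFoxO-TKO mice read 5.93, 6.12, 5.68 and 5.77 when fed and 6.92, 6.61, 6.41 and 6.23 when fasted. Fasted arrays were above fed arrays in both genotypes without overlap, and fasted mFoxO-TKO arrays were below fasted WT arrays. The change was 1.30 ± 0.21 in WT mice (adjusted p = 0.000395) and 0.67 ± 0.21 in mFoxO-TKO mice, which did not pass (adjusted p = 0.0589, or 0.00925 with the replicate block). The fasted genotypes differed by −0.91 ± 0.21 (adjusted p = 0.00971), and the interaction, −0.63 ± 0.29, did not pass (adjusted p = 0.478). The dimmer probe of Txnip rose by 1.73 in WT mice (adjusted p = 0.00209), and its difference between fasted genotypes was −0.75 (adjusted p = 0.217), with 1 spot in the disturbed area. Txnip carries the single FoxO-site match among the members' promoters printed above. Txn1 and Txn2, the cytosolic and mitochondrial thioredoxins, had fasting values of 0.36 ± 0.17 and 0.17 ± 0.15 in WT mice, and the mitochondrial reductase Txnrd2 had 0.20 ± 0.13. The fed and fasted WT arrays of Txn1 did not overlap.

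Among the peroxiredoxins and sulfiredoxin, Srxn1 had the largest fasting change of the 36 members on all spots. Sulfiredoxin repairs peroxiredoxins whose active cysteine has been overoxidised. Srxn1 read 3.72, 3.80, 3.08 and 3.02 in fed and 6.17, 6.24, 6.19 and 6.27 in fasted WT mice. In mFoxO-TKO mice it read 3.92, 4.37, 3.81 and 3.46 when fed and 5.65, 4.07, 3.96 and 3.78 when fasted. The 4 fasted WT arrays were close together and above every other array, and replicate 1 stood well above the other fasted mFoxO-TKO arrays. The rise in WT mice was 2.82 ± 0.34 (7.05-fold, adjusted p = 3.43e-05), 2.45 within slide 1 and 3.18 within slide 2. In mFoxO-TKO mice the value was 0.47 ± 0.34 (adjusted p = 0.459), and 0.05 ± 0.22 without replicate 1 (adjusted p = 0.941). Fasted mFoxO-TKO mice were lower than fasted WT mice (log2 difference −1.86 ± 0.34, adjusted p = 0.00197). The interaction was −2.34 ± 0.47 (adjusted p = 0.0242), and −2.77 ± 0.30 without fasted mFoxO-TKO replicate 1 (adjusted p = 0.000513). That call was lost without WT fed replicate 3 or 4, fed mFoxO-TKO replicate 2 or 3, or fasted mFoxO-TKO replicate 2 or 4, with values from −2.77 to −2.15.

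Prdx1, an abundant cytosolic peroxiredoxin, read 5.90, 5.69, 5.64 and 5.66 in fed and 6.5, 6.37, 6.18 and 6.22 in fasted WT mice. It read 5.82, 5.61, 5.65 and 5.59 in fed and 5.98, 5.73, 5.71 and 5.70 in fasted mFoxO-TKO mice. The fasted WT arrays were above all others. Prdx1 rose by 0.59 ± 0.12 in WT mice (adjusted p = 0.00237), and fasted mFoxO-TKO mice differed from fasted WT mice by −0.54 ± 0.12 (adjusted p = 0.00909). The dimmer probe of Prdx1 disagreed, with 0.13 (adjusted p = 0.742) and −0.06 (adjusted p = 0.911) in the same comparisons, so neither passed there. The mean of its probes gave 0.36 and −0.30 (adjusted p = 0.129 and 0.296). With the normexp background correction the call between fasted genotypes was lost.

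Prdx4, the peroxiredoxin of the endoplasmic reticulum, read 1.38, 1.41, 1.54 and 1.78 in fed and 1.27, 1.26, 1.08 and 1.29 in fasted WT mice. Prdx4 in mFoxO-TKO mice read 1.72, 1.62, 1.79 and 1.78 when fed and 1.53, 1.25, 1.11 and 1.18 when fasted. Fasted arrays were below fed arrays in both genotypes without overlap. The fall passed in mFoxO-TKO mice (−0.46 ± 0.13, adjusted p = 0.0361) and not in WT mice (−0.30 ± 0.13, adjusted p = 0.114), and the interaction was −0.16 ± 0.18 (adjusted p = 0.865). The call in mFoxO-TKO mice was lost without WT fed replicate 3, any fed mFoxO-TKO array (replicates 1, 2, 3 and 4), or fasted mFoxO-TKO replicate 2, 3 or 4, with values from −0.55 to −0.41. It was also lost with the normexp background correction, with median scaling and with no filter on dim probes. Prdx2, Prdx3, Prdx5 and Prdx6 passed in no comparison, and their fasting values in WT mice lay between 0.03 and 0.19.

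Of the superoxide dismutases and catalase, Cat rose and Sod3 fell in fasted WT muscle. Cat, the peroxisomal catalase, read 2.34, 2.28, 2.23 and 1.98 in fed and 3.56, 3.27, 3.34 and 3.27 in fasted WT mice. In mFoxO-TKO mice it read 1.79, 2.11, 1.77 and 2.06 when fed and 1.72, 3.01, 3.25 and 3.12 when fasted, with 1.72 from the disturbed spot of replicate 1. Apart from that spot, every fasted array was above every fed array in both genotypes. Cat rose by 1.15 ± 0.26 in WT mice (adjusted p = 0.0044), and with the normexp background correction that call was lost (adjusted p = 0.194). In mFoxO-TKO mice the value was 0.84 ± 0.26 on all spots (adjusted p = 0.0543), and without the disturbed spot Cat rose by 1.20 ± 0.14 (adjusted p = 0.000206). The other probe of Cat, outside the disturbed area, read 0.53, 0.58, 0.72 and 0.24 in fed and 1.96, 1.76, 1.72 and 1.94 in fasted WT mice, with 0.15, 0.24, 0.05 and 0.17 in fed and 1.61, 1.47, 1.58 and 1.60 in fasted mFoxO-TKO mice. Its fed and fasted arrays did not overlap in either genotype. It rose by 1.33 ± 0.12 in WT mice (adjusted p = 3.79e-06) and by 1.41 ± 0.12 in mFoxO-TKO mice (adjusted p = 2.5e-05). The interaction of that probe was 0.08 ± 0.17 (adjusted p = 0.93), and that of the brighter probe 0.05 ± 0.19 without the disturbed spot (95% confidence interval −0.36 to 0.46).

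Sod3, the extracellular superoxide dismutase, read 3.49, 3.45, 2.95 and 2.82 in fed and 2.44, 2.37, 2.37 and 2.43 in fasted WT mice. It read 3.09, 3.16, 3.22 and 2.99 in fed and 3.42, 2.76, 2.68 and 2.96 in fasted mFoxO-TKO mice. The 4 fasted WT arrays were close together and below every other array. The log2 change in WT mice was −0.77 ± 0.18 (adjusted p = 0.0055). It was −1.06 within slide 1 and −0.49 within slide 2, and passed in neither alone. In mFoxO-TKO mice the value was −0.16 ± 0.18 (adjusted p = 0.666), and the fasted genotypes differed by 0.55 ± 0.18 without overlap (adjusted p = 0.0667, or 0.0339 with the replicate block). Of the 9 fibroblast markers given for Gpx8, 5 fell with fasting in WT mice (9.57% of all genes) and 3 in mFoxO-TKO mice (4.23%). The part of these markers in the Sod3 result was not tested. Sod1, the cytosolic enzyme, had a fasting value of 0.53 ± 0.18 in WT mice without overlap (adjusted p = 0.0546), and it rose by 0.52 ± 0.17 without the disturbed spots (adjusted p = 0.0369). Between fasted genotypes it was −0.31 ± 0.18 (adjusted p = 0.361, or 0.0297 with the replicate block). Sod2, the mitochondrial manganese enzyme, had values of 0.05 ± 0.16 in WT mice and 0.04 ± 0.16 between fasted genotypes.

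Across compartments, the 4 members of mitochondria (Txn2, Txnrd2, Prdx3 and Sod2) gave 0 calls in the 5 comparisons with limma and 0 unadjusted p-values under 0.05. Over all genes 20.8% and 8.52% passed for fasting in WT and mFoxO-TKO mice. For the knockout in fed and fasted mice 1.02% and 9.36% passed, and 1.15% for the interaction. With 4 genes, 0 calls is near those shares and no result about the compartment. The fasting values of these 4 in WT mice ran from 0.05 to 0.20. Of the 5 selenoproteins among the members (Gpx1, Gpx3, Gpx4, Txnrd1 and Txnrd2), Txnrd1 rose in fasted WT muscle, where 11.2% of all genes rose. Gpx3 and Txnrd1 were lower in fasted mFoxO-TKO muscle, where 4.97% of all genes were lower. In total 21 members passed in no comparison on all spots. Among the 17 of them with no spot in a disturbed area, fasting values in WT mice ran from −0.61 for Gpx8 to 0.53 for Sod1, and fasted genotype values from −0.67 for Nqo1 to 0.43 for Glrx.

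NRF2 target genes made up 12 of the members, a list chosen with earlier results of these data known. In fasted WT muscle 6 rose (Srxn1, Gclm, Hmox1, Gsr, Txnrd1 and Prdx1) and Gsta4 fell, where 11.2% of all genes rose and 9.57% fell, and the median of the 12 was 0.72. In mFoxO-TKO muscle 0 passed with fasting, where 8.52% of all genes passed, and the median of the 12 was 0.09. An unadjusted p under 0.05 was found for 1 of them, with no share of all genes given at that limit. In fasted mFoxO-TKO muscle 6 were lower and 1 higher than in fasted WT muscle, with a median of −0.67, where 4.97% of all genes were lower and 4.39% higher. On all spots the signed fasting change was higher in WT mice for 10 of the 12, against 48.1% of all genes. The test of the difference passed for Srxn1 on all spots, as given above. Without the disturbed spots 8 of the 12 passed for fasting in WT mice (23.6% of all genes) and 0 in mFoxO-TKO mice (9.76%). For the knockout in fasted mice 9 then passed (10.7%). Without fasted mFoxO-TKO replicate 1 these numbers were 8 (25.4%), 1 (9.93%) and 10 (10.8%).

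Outside the members, 22 other regulators and targets of NRF2 were examined. In fasted WT muscle 9 of the 22 rose (11.2% of all genes), in mFoxO-TKO muscle 4 rose (4.29%), and in fasted mFoxO-TKO muscle 8 were lower than in fasted WT muscle (4.97%). Without the disturbed spots these numbers were also 9, 4 and 8. Without fasted mFoxO-TKO replicate 1 they were 10, 4 and 7, with Aldh2 added to the first and Slc48a1 lost from the last. The small Maf proteins pair with NRF2 on DNA. Maff rose by 4.04 ± 0.26 in WT mice (adjusted p = 1.56e-07) and by 1.81 ± 0.26 in mFoxO-TKO mice (adjusted p = 0.000771), with an interaction of −2.24 ± 0.37 (adjusted p = 0.00664). Mafk rose by 2.34 ± 0.19 in WT mice and 0.95 ± 0.19 in mFoxO-TKO mice, with an interaction of −1.39 ± 0.27 (adjusted p = 0.021). Sqstm1, the autophagy receptor that binds KEAP1, was lower in fasted mFoxO-TKO mice (log2 difference −1.25 ± 0.13, adjusted p = 2.78e-05), and its interaction was −0.82 ± 0.18 (adjusted p = 0.039). Osgin1, an NRF2 target, rose by 1.88 ± 0.33 in WT mice and was lower in fasted mFoxO-TKO than in fasted WT mice (−1.84 ± 0.36, adjusted p = 0.00407). Bach1, a repressor that competes for the same DNA element, rose in both genotypes, by 1.67 ± 0.18 in WT mice (adjusted p = 2.33e-05) and 1.25 ± 0.20 in mFoxO-TKO mice (adjusted p = 0.0016).

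**Figure D5:**
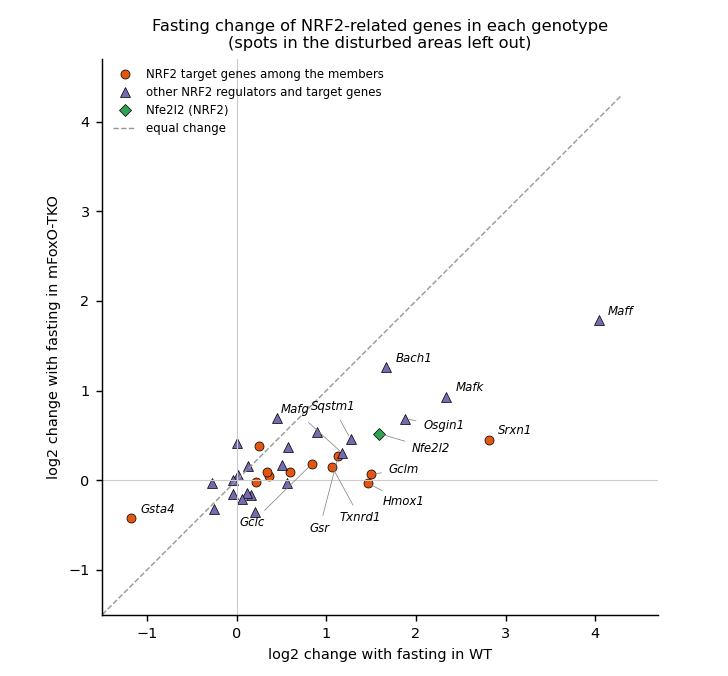
Change with fasting (log2) in WT muscle on the x axis and in mFoxO-TKO muscle on the y axis, for the 12 NRF2 target genes among the members (circles), 22 other NRF2 regulators and targets (triangles) and Nfe2l2 (diamond), with the spots in disturbed areas left out and a dashed line of equal change. Maff, Srxn1, Mafk, Osgin1 and Nfe2l2 lie to the right of that line, and Gsta4 to the left of it. The 2 axes come from different mice.

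Among 25 other genes of glutathione turnover tested, of 26 listed, Chac1 had the largest change that passed. It encodes an enzyme that degrades glutathione, rose by 2.40 ± 0.43 in fasted WT muscle (adjusted p = 0.000953) and had a value of −0.40 ± 0.43 in mFoxO-TKO muscle (adjusted p = 0.652). In fasted mFoxO-TKO mice it was lower (log2 difference −3.95 ± 0.43, adjusted p = 2.7e-05), with an interaction of −2.80 ± 0.61 (adjusted p = 0.0351). In fasted mice the knockout lowered 4 of the 25 (4.97% of all genes), among them Gstm4 (−0.73 ± 0.17) and Gstm3 (−0.69 ± 0.16), both mu-class transferases like Gstm1. It raised 1, Ggt5, a gamma-glutamyl transferase (1.1 ± 0.22, adjusted p = 0.00426). With fasting in mFoxO-TKO mice Ggt5 rose by 1.35 ± 0.22, and Gstt1 (−1.52 ± 0.40) and Mgst2 (−1.21 ± 0.34) fell.

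Of 22 other genes with a thioredoxin fold or related function, 3 rose and 2 fell in fasted WT muscle, 22.7% of the list against 20.8% of all genes. The 3 were Arrdc3 (2.93 ± 0.32) and Arrdc2 (2.21 ± 0.36), arrestin-domain relatives of Txnip, and Txnl1 (1.08 ± 0.15), a thioredoxin-like protein of the proteasome. Arrdc3 and Arrdc2 also rose in mFoxO-TKO muscle, by 1.32 ± 0.32 and 1.69 ± 0.33, and in fasted mice all 3 were lower with the knockout (−2.47 ± 0.32, −1.32 ± 0.36 and −0.78 ± 0.15).

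Genes that supply NADPH, the electron source of both systems, gave 1 gene that rose and 1 that fell of 16 tested in fasted WT muscle, 12.5% against 20.8% of all genes. Nadk2, the mitochondrial NAD kinase, rose in fasted WT muscle (0.67 ± 0.19, adjusted p = 0.0186) and was lower in fasted mFoxO-TKO than in fasted WT muscle (−1.26 ± 0.19, adjusted p = 0.000485). Tkt, transketolase of the pentose phosphate pathway, fell in both genotypes (−1.12 ± 0.17 and −0.98 ± 0.21). Among 13 oxidant-producing enzymes and their subunits tested, 2 rose and 2 fell with fasting in each genotype, 30.8% of the list against 20.8% of all genes in WT and 8.52% in mFoxO-TKO muscle. Xdh, xanthine dehydrogenase, and Nox4, an NADPH oxidase, rose with fasting in WT mice (1.62 ± 0.30 and 1.47 ± 0.26) and in mFoxO-TKO mice (1.90 ± 0.30 and 1.01 ± 0.26). Maob, a monoamine oxidase that releases hydrogen peroxide, was lower in mFoxO-TKO muscle in fed (−2.19 ± 0.26) and fasted mice (−2.00 ± 0.26).

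Macrophages hold much Hmox1, so their markers were measured beside it. Of 9 macrophage markers tested, of 10 listed, 2 fell with fasting in WT muscle and 2 in mFoxO-TKO muscle (9.57% and 4.23% of all genes fell), with medians of −0.57 and −0.84, and Cd163 was not well above background. In fasted mice 1 marker, Mrc1, was higher with the knockout (0.86 ± 0.26), and the median of the 9 was 0.53. The summed linear level of the markers ran from 18.3 to 32.9 in fed WT, 16.2 to 21 in fasted WT, 26.4 to 58.9 in fed mFoxO-TKO and 15.7 to 35.4 in fasted mFoxO-TKO mice. Their part in the Hmox1 result was not tested.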

How the data were processed

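Cy3-labelled total RNA of each quadriceps was hybridised to an Agilent mouse array. Per the file headers, spots were quantified with Feature Extraction 11.0.1.1, while the submitters' processing notes name version 9.5. The deposited intensity used here is the processed signal, background-subtracted and detrended within the array per the file headers, and not scaled between arrays. The deposited median intensities of spot and background served the normexp alternative, and the deposited flags (0 or 1) marked which spots exceeded the background, were saturated or were uneven. A table of values from the authors holds a score for 18324 spots, the processed signal times 1 factor per array with a 75th percentile of 100, with no log and no centring. It served as an alternative and held 32 of the 36 members.

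Spots marked uneven (0.143% to 3.28% per array) were left out, and repeats of a probe averaged. Probes stayed in if all arrays of 1 or more groups marked them as well above background. RefSeq accessions gave a symbol for 28331 of 55681 probes, and the other 27350 were grouped by the accession they carry. Of the 21281 entries tested, called genes here, 14150 had a symbol. The brightest kept probe stands for a gene. Levels were log2 signals minus the array's 75th percentile. Limma 3.58.1 in R 4.3.3 fitted 4 group means to 16 arrays (12 residual and 3.24 prior degrees of freedom) with 5 contrasts. Levels and changes are on the log2 scale computed here from the deposited intensity. A disturbed area was a set of spots for which, in a window of 5 spots each way with at least 20 bright neighbours, the median departure from the group's other arrays was at least 1 log2 unit.

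The members and gene lists were chosen with earlier results of these data known. Named genes are the members that passed in any comparison, with every array's value, the other members by means or ranges, and up to 3 passing genes with the largest change per related list and comparison. Gclc, and other members that passed when disturbed spots or that array were left out, are described as well, and were chosen after their values were seen. The labels do not say what a replicate number marks. Deviations of same-numbered arrays from their group means correlated above 0.1 in all 4 pairs for fasting in mFoxO-TKO mice (0.141 to 0.392), the knockout in fed mice (0.164 to 0.329) and the knockout in fasted mice (0.105 to 0.303), so for these a fit with the number as a block stands beside the results. For fasting in WT mice 3 of 4 pairs did. Same-numbered arrays also share a slide. The fitting script was tested on simulated data. For fasting in WT mice it recovered 60 of 100 changes of 1 log2 unit and 95 of 100 of 2. It also gave 14 false calls among 21081 unchanged genes. A change of 1 log2 unit can thus fail to pass. Promoter windows came from RefSeq on GRCm38.p6, whereas the file headers name mm9, so no coordinate of the files was used. Alternatives covered the background correction, scaling, filters, probe choice, slide, replicate number and each array left out.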

Additional observations from a re-analysis of the deposited data

Results flagged for a closer look

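On 7 probes the array of fasted mFoxO-TKO replicate 1 stood far from the other arrays of its group. Its levels were −3.36 for Gclc, −3.51 for Gclm and 1.72 for Cat, the lowest of the group, each within the disturbed area. Its levels were 5.10 for Txnrd1, 5.98 for Prdx1, 5.65 for Srxn1 and 4.01 for Hmox2, the highest of the group, with no disturbance around those spots. What set these values apart was not tested.

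Another 3 single arrays stood apart from their groups: WT fed replicate 1 with a Gpx4 level of 7.06, fed mFoxO-TKO replicate 1 with a Gstp1 level of 3.82, and WT fasted replicate 3 with a Prdx4 level of 1.08. In all 10 of 138 groups of 4 arrays were set off in this way, where chance alone does so in about 1 in 20 groups.

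The fasting change of Srxn1 differed between the genotypes by −2.34 on the log2 scale (mFoxO-TKO minus WT, adjusted p = 0.0242 with limma).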

How the results depend on the processing

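Of the 25 calls on all spots, 0 changed sign in any alternative. Values that did not pass could change sign, as those of Gclm (−0.59 to 0.06) and Gclc (−1.17 to 0.18) for fasting in mFoxO-TKO mice did without the disturbed spots. The number of members that passed for fasting in WT mice was 12 and ran from 11 to 15 when 1 array was left out. For the knockout in fasted mice it was 10, with a range of 9 to 14. Both were 2 within slide 1 alone, where 31 members were tested with 2 mice per group, and otherwise stayed within 1.5 times. For fasting in mFoxO-TKO mice 1 member passed. That number was 2 with normexp, with quantile normalization, with the mean of all probes and without disturbed spots, 3 with slide as a block, within slide 2 and for probes well above background on all 16 arrays, 4 with the authors' value table and with uneven spots kept, 5 when scaled on the probes detected on every array, and 0 with no filter on dim probes or within slide 1, and 0 to 4 with 1 array left out. For the knockout in fed mice 1 member passed, 2 with the authors' table or uneven spots kept, 0 with no filter or within slide 1, and 0 to 1 with 1 array left out. For the interaction 1 member passed, 2 with the mean of all probes, 3 without disturbed spots, 4 with slide as a block or uneven spots kept, 5 with the authors' table, 6 with that scaling, 0 with no filter or within slide 1, and 0 to 5 with 1 array left out. The cause of these moves was not tested. The share of all genes that passed also moved between the settings for which it is given. A count of members without that share is therefore no result about the members. Scaling on the detected probes shifted the median of all genes for fasting in WT mice from 0.02 to −0.11. With the replicate number as a replicate block, 5 members passed for fasting in mFoxO-TKO mice (15.0% of all genes). For the knockout 1 passed in fed mice (1.93%) and 15 in fasted mice (15.9%). For fasting in WT mice 16 passed and for the interaction 5. Their shares of all genes are not given here, so these 2 numbers are no result about the members. The block ended no call. For fasting in WT mice 1 of the 4 same-numbered pairs had an r of 0.0555, so the number is no settled pairing there or for the interaction, and 11 of 16 arrays correlated best with their own number. Signal over background limits dim probes, and 4 mice per group and position on the slide limit all comparisons, since each group occupied 1 column of both slides and position cannot be told apart from group.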
